A study of Mus musculus with 2 samples.

Results

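The genes described here are those of the transcription factor MYC, of its partners and antagonists, and of the nucleolar machinery that makes ribosomes. They were taken as a list of 53 gene symbols, and all 53 were found among the 14197 genes of the table. To investigate the transcriptome of breast cancer (BC) cells under Astragalin (AS), a plant flavonoid, 4T1 cells received 20 μM AS or the vehicle during 24 h, with 1 library sequenced for either condition. 4T1 is a murine mammary carcinoma line, both libraries are labelled as wild type, and the labels do not name the vehicle. The values are RPKM, the reads of a gene per kilobase of its exons, scaled to the size of the library, and the library sizes behind them were 44909683 reads with AS and 50820728 reads with the vehicle. With 1 library per condition there is no replicate error and no test, so differences compare these libraries only. Each difference is a log2 fold change of AS over the vehicle, for which 0.1 RPKM was added on both sides, so that for low genes it comes out too small. Intervals are exact binomial ones at 95% (Clopper-Pearson), taken from a gene's read counts, and cover counting error only, since reads without molecular identifiers are not independent molecules. Since RPKM is a share of a library, a change in the RNA content of a whole cell cannot be seen, and fewer cells of a type cannot be told apart from less RNA per cell.

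MYC binds DNA together with MAX at a short sequence called the E-box, and the MXD and MXI1 proteins compete for MAX and act against MYC. Among the best known targets of MYC are the genes of ribosome biogenesis. RNA polymerase I transcribes the ribosomal RNA precursor in the nucleolus, small nucleolar ribonucleoproteins (snoRNPs) modify it, and large sets of assembly factors cut and fold it into the small and the large ribosomal subunit.

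None of the 53 genes differed by more than 2-fold, a log2 value of 1 and the fold used in the study, in any direction. Among all genes, 0.662% were higher and 0.31% were lower by more than this. At the lower fold of the study, which is 1.5-fold, again 0 of the 53 genes were higher and 0 were lower, against 3.56% and 2.01% of all genes. When the median of all genes was subtracted from every value, 1 gene, Nop10, was lower by more than 1.5-fold. The 53 values lay between -0.54 for Nop10 and 0.47 for Noc3l, and their median was 0.11, beside 0.066 over all genes. With AS, 39 of the 53 genes stood higher, which is 73.6% and stands beside 60.9% of all genes. The median of all genes was itself above 0, and 32 of the 53 genes lay above it. The middle 80% of all genes lay between -0.28 and 0.39, and 47 of the 53 genes lay in this range, with 5 above it and 1 below it. The genes above it were Noc3l, Nob1, Rrs1, Nop14 and Nop2, and the gene below it was Nop10. In groups by role, the highest medians were those of the MYC and MAX network (0.30, 5 genes) and of the small subunit factors (0.25, 15 genes), and the lowest was that of the snoRNP proteins (-0.019, 8 genes, or 0.0069 without genes under 5 RPKM).

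**Figure D1:**
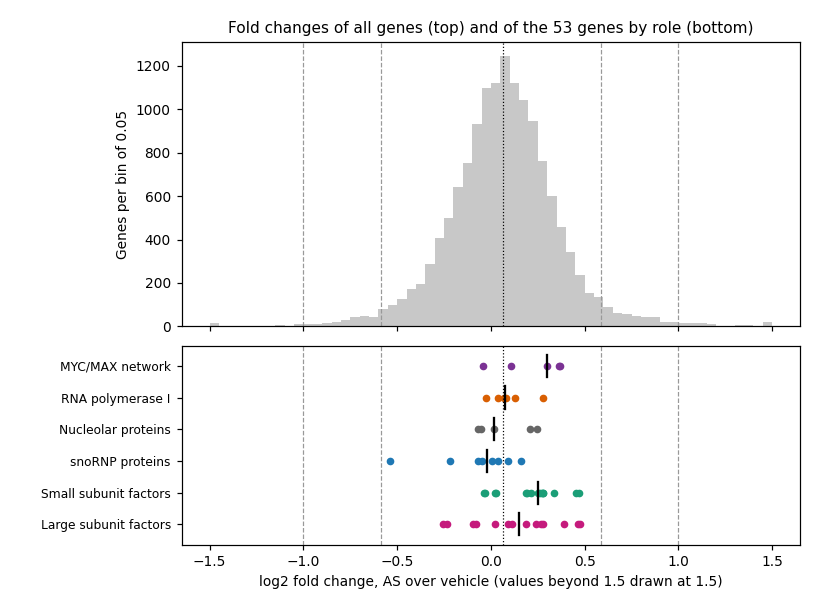
The upper panel counts all 14197 genes by log2 fold change of AS over vehicle in bins of 0.05, and the lower panel has 1 point for each of the 53 genes by role, with the median of the role as a black bar. Dashed lines mark 1.5-fold and 2-fold in both directions and the dotted line is the median of all genes (0.066); every point lies inside the inner dashed lines.

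The E-box is shown first, since it is the sequence through which MYC and MAX act. RefSeq promoter windows (GRCm38.p6, 250 bases before to 50 bases after the start of the gene) were matched to 47 of the 53 genes. Myc, Npm1, Fbl, Bop1, Rrp12 and Rrs1 had no entry. The letters CACGTG, which read the same on both strands, were found for 12 of the 47 genes (25.5%), for 11.7% of the 9680 genes of the table with a window, and for 8.09% of all 27025 genes with a window. The 12 sites are printed in the direction of the gene with up to 10 bases on either side and the E-box in capitals, ordered from the site farthest before the start to the one farthest after it.
Mxd4: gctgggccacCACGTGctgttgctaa
Rrn3: gcgccaaggtCACGTGcacacgcctc
Nop2: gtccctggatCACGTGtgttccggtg
Max: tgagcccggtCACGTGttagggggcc
Pes1: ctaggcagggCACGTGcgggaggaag
Utp4: cgcaagcgcgCACGTGgggccggggc
Wdr43: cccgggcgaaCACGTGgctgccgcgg
Tsr1: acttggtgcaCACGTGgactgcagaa
Ltv1: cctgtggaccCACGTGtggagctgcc
Grwd1: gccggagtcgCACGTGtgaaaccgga
Utp20: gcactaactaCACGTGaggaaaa
Mybbp1a: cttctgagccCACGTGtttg

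Counted from the start that RefSeq gives, which for some genes differs from the GENCODE start of the loci below, the sites of Mxd4, Rrn3 and Nop2 began 219, 215 and 60 bases before the gene. That of Rrn3 is the first of 2 in its window. The site of Max spanned the RefSeq start, and the other 8 lay within the first 50 bases after it. Of these sites, the stretch of Nop2 lies at chr6:125131813-125131838 on the plus strand and that of Max at chr12:76962236-76962261 on the minus strand. The 12 genes had a median log2 fold change of 0.26, and 10 of them were higher in the AS library, all 10 also above the median of all genes. The other 35 genes with a window had a median of 0.081, with 26 higher and 19 above the median of all genes. Over the table, genes with the E-box letters had a median of 0.095 and those without a median of 0.071. The match describes these letters in these windows and says nothing of whether MYC was bound. The list was made around MYC and a pathway known as its target, so its larger share of sites is no independent finding. By role, 5 of the 12 genes with a site are small subunit factors, and Max and Mxd4 belong to the MYC and MAX network. These roles had the highest medians (0.25 and 0.30). No gene of the snoRNP proteins, the role with the lowest median (-0.019), is among the 12. Sites and roles thus overlap, and the part of either in these medians was not tested.

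Myc itself, the gene of the transcription factor, was moderately higher in the AS library. Its locus is chr15:61985391-61990374, plus strand (GRCm38, GENCODE M21, as for all genes here). Its level was 29.7 RPKM (AS) and 23.1 RPKM (vehicle), and 3622 and 3188 reads stood behind it. This is a log2 fold change of 0.36 with an interval from 0.29 to 0.43, and 11.8% of all genes had a higher value. Max (chr12:76937269-76962201, minus strand), which encodes the obligate partner, was also higher, at 16.5 RPKM (AS) and 13.4 RPKM (vehicle), a log2 fold change of 0.30 with an interval from 0.22 to 0.38. Of the antagonists, Mxd4 was higher by as much as Myc, and the others were not. Mxd4 had 7.22 RPKM (AS) and 5.57 RPKM (vehicle), a log2 fold change of 0.37 with an interval from 0.29 to 0.45. Mxd1 was the lowest of the network in level, with 1.70 RPKM (AS) and 1.57 RPKM (vehicle), and its log2 fold change of 0.11 had an interval from -0.060 to 0.29 that holds 0. Mxi1 stood at 25.6 RPKM (AS) and 26.4 RPKM (vehicle), a log2 fold change of -0.044. In this network of 5 genes, Myc and Mxi1 had the highest RPKM in both libraries and stood close to each other. The exons of Mxi1 and Mxd4 overlap an annotated gene on the opposite strand, and whether the authors counted reads by strand is not given in the sources used here.

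The wider network was described with 17 other genes, of which 15 were in the table and Mycn and Mlxipl were not. Of these 15 genes 10 were higher and 5 were lower with AS, 7 lay above the median of all genes, and their median was 0.054, which turned to -0.012 when the median of all genes was subtracted. Mxd3, another MXD antagonist that is known from proliferating cells, was the 1 gene of the list past 1.5-fold. It had 7.11 RPKM (AS) and 12.5 RPKM (vehicle), on 756 and 1500 reads, and its log2 fold change of -0.80 had an interval from -0.94 to -0.68. Thus the MXD genes went different ways in these libraries, with Mxd4 higher, Mxd3 lower and Mxd1 close to its vehicle level. Chosen after their values were seen, Mnt (0.26) and Mga (0.27), which encode further partners of MAX, and Mlx (0.35), a MAX-like protein, were higher by about the amount of Max. Fbxw7, the gene of a ubiquitin ligase subunit that marks MYC for degradation and also chosen in this way, had a log2 fold change of 0.30. Mlx, Fbxw7, Mga and Mnt had the highest values of the 15 genes. Of the 5 lower genes, Ruvbl2 (-0.24) and Ruvbl1 (-0.10), also chosen in this way, had intervals below 0, as did Mxd3.

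**Figure D2:**
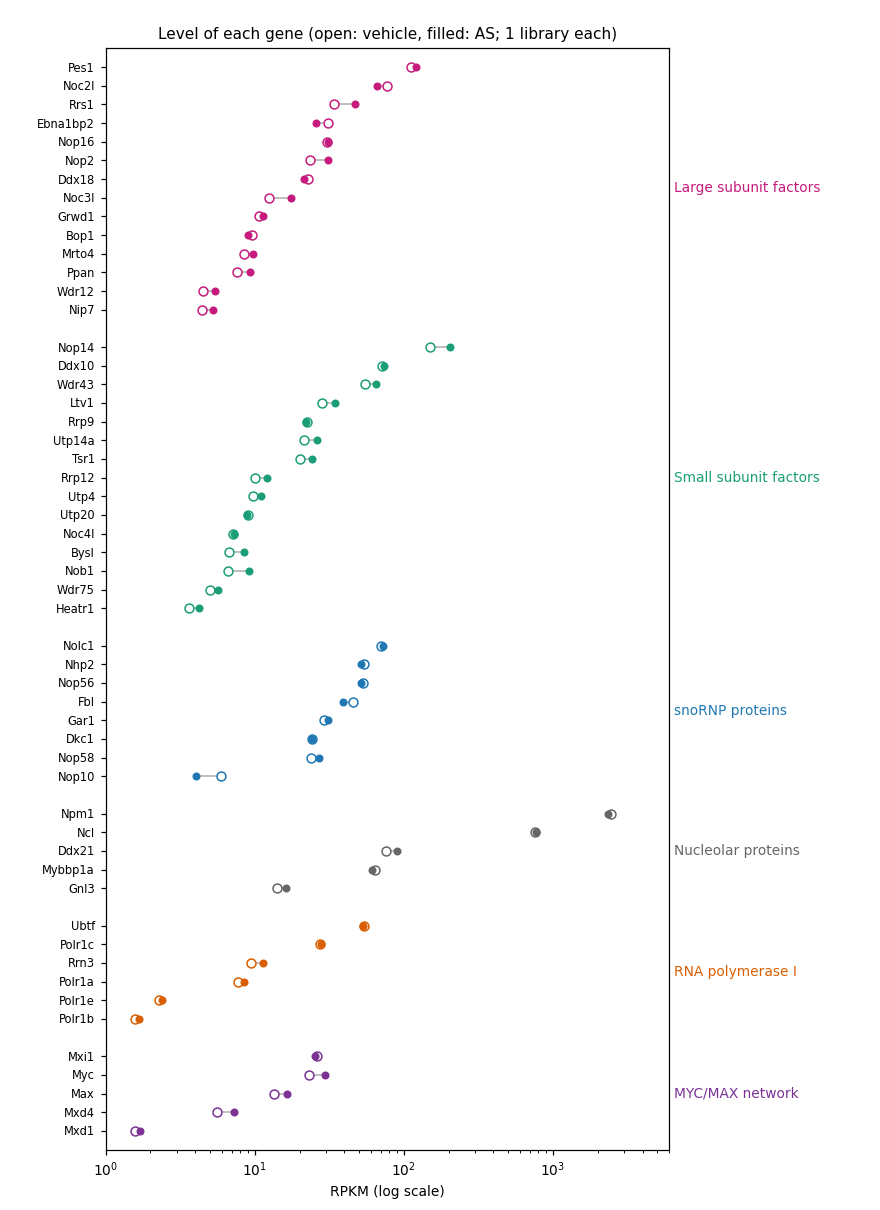
RPKM on a log axis of each of the 53 genes in the vehicle library (open points) and the AS library (filled points), grouped and coloured by role and ordered by the vehicle level. Npm1 and Ncl stand above all others, and the largest distances between open and filled points are those of Nop10, Noc3l, Nob1, Rrs1 and Nop14.

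The machinery that transcribes ribosomal RNA differed little between the libraries. Of 6 genes of RNA polymerase I and its factors, 5 were higher with AS and 4 were above the all-gene median, with a median of 0.076, close to that of all genes. Rrn3, which encodes the factor that makes the polymerase competent to initiate and through which growth signals act, had the largest value. It (chr16:13780708-13814839, plus strand) had a level of 11.5 RPKM (AS) and 9.44 RPKM (vehicle), a log2 fold change of 0.28 with an interval from 0.19 to 0.37. Polr1a, the gene of the largest subunit, had 8.44 RPKM (AS) and 7.71 RPKM (vehicle) and a log2 fold change of 0.13 with an interval from 0.071 to 0.19. Polr1b, the gene of the other large catalytic subunit, was at 1.67 RPKM (AS) and 1.58 RPKM (vehicle), with a log2 fold change of 0.081. The intervals of Polr1b, Polr1e (0.072), which encodes a polymerase-associated factor, and Polr1c (0.037), a subunit shared with RNA polymerase III, all held 0. Ubtf, which encodes the protein that binds the ribosomal RNA gene promoter, was the most abundant of the 6 at 53.6 RPKM (AS) and 54.5 RPKM (vehicle), a log2 fold change of -0.024. The table held 14 other genes of RNA polymerase I, of which 8 were higher, 6 lower and 6 above the median of all genes, with a median of 0.042 and 0 past 1.5-fold. These 14 include Polr2l (-0.37), Polr2f (-0.24), Polr2k (-0.068), Polr2e (0.027) and Polr2h (0.32). These Polr2 genes encode subunits shared by RNA polymerases I, II and III, and they were not put in the RNA polymerase III list. How far the medians depend on this assignment was not tested. RNA polymerase III makes the 5S ribosomal RNA and transfer RNAs. The 22 genes listed for this polymerase and its factors had a higher median of 0.21. Of these 17 were higher with AS, 5 were lower, 13 lay above the median of all genes and 0 were past 1.5-fold. The 22 include Maf1 (0.25), which encodes a repressor of this polymerase. With the median of all genes subtracted the medians were 0.010 for the 6 RNA polymerase I genes, -0.024 for the 14 others and 0.14 for RNA polymerase III, and with the expression trend removed they were 0.018, -0.0087 and 0.12.

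The abundant nucleolar proteins had nearly the same levels in both libraries. Npm1, the gene of nucleophosmin, which shuttles ribosomal proteins and histones, had the highest level of all 53 genes. Npm1 (chr11:33152287-33163206, minus strand) had 2354 RPKM (AS) and 2465 RPKM (vehicle), with 281765 and 333816 reads and a log2 fold change of -0.066, which turned to 0.0090 with the expression trend removed. Npm1 has many processed copies in the mouse genome, and how the authors counted reads that match several places is not stated, so its level is uncertain. Ncl, the gene of nucleolin (chr1:86344719-86359400, minus strand), followed with 768 RPKM (AS) and 758 RPKM (vehicle) and a log2 fold change of 0.018. With the median of all genes subtracted, Ncl turned to -0.048. Mybbp1a, a MYB-binding protein that acts on RNA polymerase I, had 61.6 RPKM (AS) and 63.9 RPKM (vehicle) and a log2 fold change of -0.052. In contrast, both Ddx21, an RNA helicase gene, and Gnl3, the gene of nucleostemin, were higher with AS. Ddx21 had 90.3 RPKM (AS) and 76.1 RPKM (vehicle), a log2 fold change of 0.25 with an interval from 0.22 to 0.27. Gnl3 had 16.2 RPKM (AS) and 14.02 RPKM (vehicle), a log2 fold change of 0.21 with an interval from 0.15 to 0.27. The median of these 5 genes was 0.018, and it was -0.048 with the median of all genes subtracted and 0.093 with the trend of the fold change with expression removed.

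The snoRNP proteins had the lowest median of the 6 roles, with 4 of 8 genes higher and 2 above the median of all genes. Nop10, the smallest protein of the H/ACA particle, which guides pseudouridylation and is also part of telomerase, was the lowest of all 53 genes. Its level (chr2:112261926-112263269, plus strand) was 4.06 RPKM (AS) and 5.93 RPKM (vehicle). This rests on 202 and 334 reads, the fewest among the 53 genes. Its log2 fold change was -0.54, with an interval from -0.81 to -0.29, and 97.4% of all genes had a higher value. The other H/ACA proteins did not share this difference. Dkc1, the pseudouridine synthase dyskerin, had 24.2 RPKM (AS) and 24.1 RPKM (vehicle) and a log2 fold change of 0.0069, with an interval from -0.051 to 0.065. Nhp2 stood at 51.5 RPKM (AS) and 54.1 RPKM (vehicle) (-0.070) and Gar1 at 31.00 RPKM (AS) and 29.1 RPKM (vehicle) (0.091). Of the box C/D particle, which guides ribose methylation, Fbl, the methyltransferase fibrillarin, was lower with AS, Nop56 was close to its vehicle level and Nop58 was higher. Fbl (chr7:28169710-28179269, plus strand) had 39.1 RPKM (AS) and 45.4 RPKM (vehicle), a log2 fold change of -0.22 with an interval from -0.26 to -0.17. Nop56 had 51.8 RPKM (AS) and 53.5 RPKM (vehicle) (-0.045), and Nop58 had 26.9 RPKM (AS) and 24.1 RPKM (vehicle), a log2 fold change of 0.16 with an interval from 0.13 to 0.20. Nolc1, which encodes a chaperone of both kinds of particle, had 72.9 RPKM (AS) and 70.9 RPKM (vehicle) and a log2 fold change of 0.039. Among 9 other genes listed with the snoRNPs 4 were higher, 5 lower and 2 above the median of all genes, with a median of -0.037 and 0 past 1.5-fold. Most encode assembly factors, but 1 of the 5 lower genes, Tcof1 (-0.083), encodes a nucleolar protein of ribosomal RNA transcription. Without the genes under a mean of 5 RPKM, the medians of the snoRNP proteins and of the other snoRNP genes were 0.0069 and 0.0073, above 0 in place of below it, and Nop10 is among the genes that this leaves out.

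Small subunit factors were mostly higher in the AS library. Of 15 genes 13 were higher and 2 lower, 11 lay above the median of all genes, and the median was 0.25. Nob1, the gene of the endonuclease that makes the final cut of 18S ribosomal RNA, had the highest value, although Nop14 stood above it with 1 RPKM added (0.45 against 0.42) and with the expression trend removed (0.53 against 0.41). Nob1 (chr8:107412486-107425051, minus strand) had 9.20 RPKM (AS) and 6.62 RPKM (vehicle), with 1440 and 1173 reads. Its log2 fold change was 0.47, and the interval from 0.36 to 0.59 reaches 1.5-fold. Nop14, a core protein of the early particle, was the most abundant of these genes. Nop14 (chr5:34638536-34660148, minus strand) had 205 RPKM (AS) and 149 RPKM (vehicle), with a log2 fold change of 0.45 and an interval from 0.43 to 0.48. Its exons overlap Gm15522, annotated on the opposite strand. Bysl, the gene of bystin, had 8.53 RPKM (AS) and 6.73 RPKM (vehicle), a log2 fold change of 0.34 with an interval from 0.23 to 0.45. Between 0.25 and 0.28 on the log2 scale lay Ltv1 (0.28) and Tsr1 (0.25), which act in late cytoplasmic steps, Rrp12 (0.28), which acts in nuclear export, and Utp14a (0.27) and Wdr43 (0.26) of the early processome. Of these, Wdr43 was the most abundant at 65.5 RPKM (AS) and 54.6 RPKM (vehicle). Heatr1, the large scaffold protein that also acts on ribosomal RNA transcription, had 4.25 RPKM (AS) and 3.64 RPKM (vehicle) and a log2 fold change of 0.22 with an interval from 0.12 to 0.33. Wdr75 (0.19) and Utp4 (0.19), which with Heatr1 and Wdr43 belong to the same subcomplex of the processome, were higher by a similar amount. The remaining 4 genes were near 0, with intervals that held 0. They were Noc4l (0.025), Ddx10 (0.024), Utp20 (-0.032) and Rrp9 (-0.034), the last a protein of the U3 particle.

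**Figure D3:**
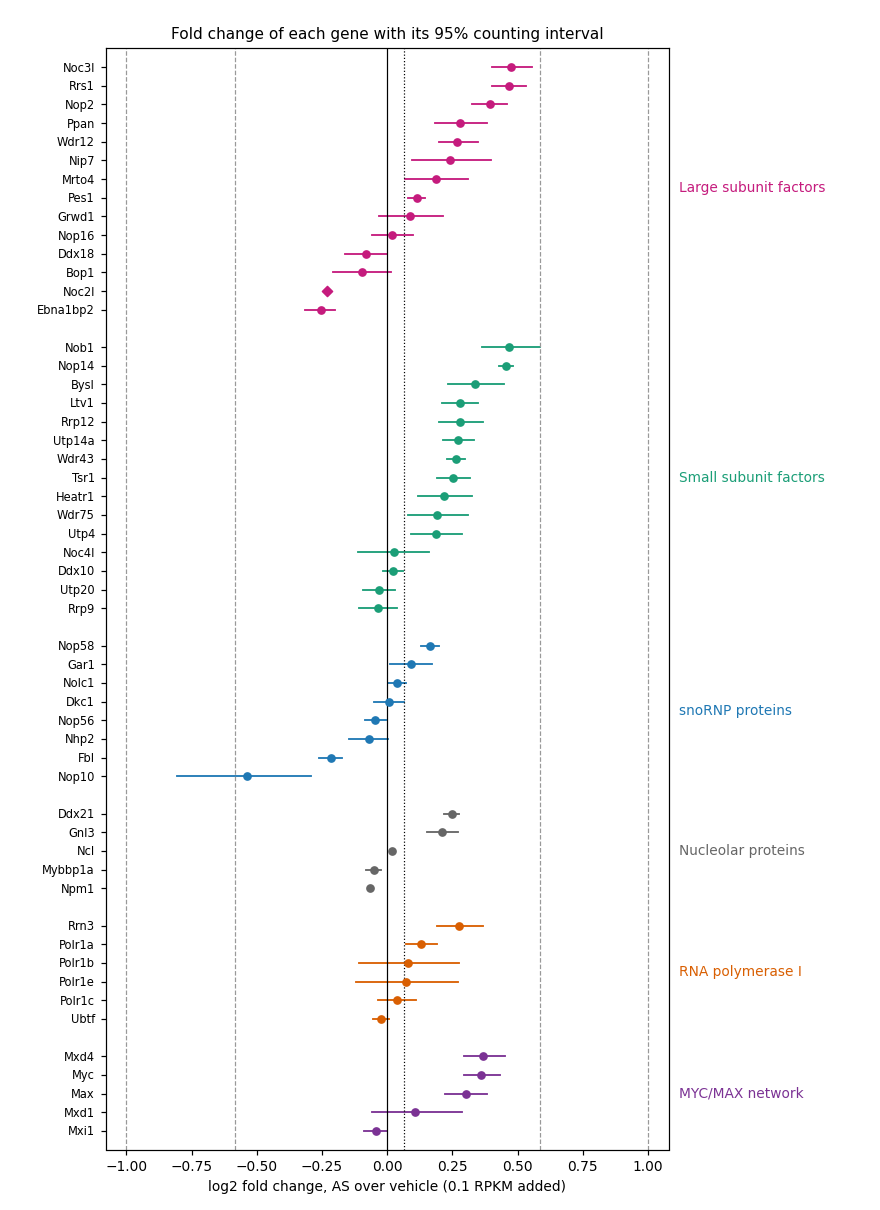
Log2 fold change of AS over vehicle for each of the 53 genes by role, with bars for the 95% Clopper-Pearson interval of the reads, which covers counting error only; Noc2l (diamond) has no interval. Dashed lines mark 1.5-fold and 2-fold in both directions and the dotted line is the median of all genes; 13 of the 15 small subunit factors lie to the right of 0, and Nop10 lies farthest to the left.

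Large subunit factors spread from -0.26 to 0.47, against -0.034 to 0.47 for the small subunit factors. Of 14 genes 10 were higher and 4 lower with AS, 9 lay above the median of all genes, and the median was 0.15. It was 0.084 with the median of all genes subtracted and 0.079 with a trimmed mean subtracted. Noc3l, which takes part in the nuclear transport of the particle, had the highest value of all 53 genes in the values as computed here, while Rrs1 was highest with 1 RPKM added (0.46, and 0.45 for Noc3l) and Nop14 with the expression trend removed (0.53, and 0.42 for Noc3l). Noc3l (chr19:38788128-38819237, minus strand) had 17.4 RPKM (AS) and 12.5 RPKM (vehicle), with 3113 and 2529 reads and a log2 fold change of 0.47 with an interval from 0.40 to 0.55. Rrs1, which brings 5S ribosomal RNA and its proteins into the particle (chr1:9545408-9547455, plus strand), had 47.1 RPKM (AS) and 34.1 RPKM (vehicle) and a log2 fold change of 0.47 with an interval from 0.40 to 0.53. Nop2, an RNA methyltransferase gene with an E-box in the window printed above, had 30.9 RPKM (AS) and 23.5 RPKM (vehicle) and a log2 fold change of 0.39 with an interval from 0.33 to 0.46. Noc2l, a partner of Noc3l, went the other way, with 65.8 RPKM (AS) and 77.3 RPKM (vehicle) and a log2 fold change of -0.23. Whole reads were not recovered for Noc2l, so it has no interval, and its exons overlap Samd11 on the opposite strand. Ebna1bp2, which acts with Rrs1 in early assembly, was also lower, at 25.98 RPKM (AS) and 31.04 RPKM (vehicle), a log2 fold change of -0.26 with an interval from -0.31 to -0.20. Thus both of these pairs of partners, Noc3l with Noc2l and Rrs1 with Ebna1bp2, held 1 of the highest and 1 of the lowest values. The pairs were chosen after their values were seen, and whether partners differ in general was not tested.

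The proteins Pes1, Bop1 and Wdr12 form 1 complex, and their genes had values of both signs. Wdr12 was higher with AS, at 5.41 RPKM (AS) and 4.47 RPKM (vehicle), a log2 fold change of 0.27 with an interval from 0.20 to 0.35. Pes1, the most abundant large subunit factor with 120.3 RPKM (AS) and 111 RPKM (vehicle), had a log2 fold change of 0.11. Bop1 was at 9.02 RPKM (AS) and 9.65 RPKM (vehicle), with a log2 fold change of -0.096 and an interval from -0.21 to 0.014. Ppan (0.28), Nip7 (0.24) and Mrto4 (0.19), which act at different steps of large subunit assembly, were higher with intervals above 0. Grwd1 (0.089), a histone-binding protein of the nucleolus, and Nop16 (0.020) had intervals that held 0. Ddx18, a helicase gene, had 21.4 RPKM (AS) and 22.7 RPKM (vehicle) and a log2 fold change of -0.081.

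The levels differed far more between genes than between the libraries. They ran from Mxd1 at 1.57 RPKM to Npm1 at 2465 RPKM in the vehicle library, and 15 of the 53 genes were among the 10% of all genes with the highest mean RPKM. The order of levels depends on the length used, since the authors divided by the length of all annotated exons of a gene joined. For Fbl that length was 4209 bases, against 1197 bases for its longest coding transcript, and 7 of the 53 genes had joined exons more than 2 times as long as that transcript. Per kilobase of the longest coding transcript, the AS level of Fbl was 137 in place of 39.1, and it was number 4 of the 53 genes in place of number 14. Npm1 and Ncl were the highest by both lengths. The fold change of a gene does not depend on this length, apart from the 0.1 RPKM added. Across the 53 genes, Spearman's rho between mean RPKM and log2 fold change was -0.23, and across all genes it was -0.16. Genes are not independent replicates, and the points share both libraries.

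Counting error was small beside these levels. Reads were recovered as whole numbers for 52 of the 53 genes, from 202 reads for Nop10 with AS to 392602 reads for Ncl with the vehicle. The counting interval lay above 0 for 30 genes, below 0 for 8 and held 0 for 14. Among the 12715 genes of the table with whole reads, it lay above 0 for 38.2% and below 0 for 20.0%, so intervals on 1 side of 0 are common in this table. The spread between dishes of the same treatment is not part of them.

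Some of these genes are also hosts of small nucleolar RNAs. By GENCODE M21, 8 of the 53 genes hold within their bounds 23 annotated small nucleolar RNA genes on their own strand, namely Nop56, Nop58, Ncl, Gnl3, Wdr43, Tsr1, Ppan and Dkc1. Their median log2 fold change was 0.19, with 7 of 8 higher with AS and 5 above the median of all genes. That of the other 45 genes was 0.11, with 32 higher and 27 above the median of all genes. The exons of 23 of the 53 genes overlap another annotated gene. For 5 of them (Nop56, Nop58, Ncl, Gnl3 and Ppan) the overlap includes the same strand, where it is with the genes of small RNAs. Others overlap a gene on the opposite strand only, such as Bysl (Ccnd3), Heatr1 (Lgals8), Tsr1 (Srr) and Wdr12 (Carf). The 30 genes without an overlap had a median of 0.099.

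The other genes of ribosome assembly, listed by step, were mostly higher for both subunits, while those of the exosome list had a median near 0. Of 47 other small subunit factors measured, 36 were higher with AS, 11 were lower and 28 were above the all-gene median, with a median of 0.13 and 0 past 1.5-fold. Of 52 other large subunit factors 42 were higher, 10 lower and 34 above the median of all genes, with a median of 0.12. Nol8, a nucleolar RNA-binding protein gene, was the 1 gene past 1.5-fold, with 4.53 RPKM (AS) and 2.94 RPKM (vehicle), where the log2 fold change of 0.60 had an interval from 0.52 to 0.72. Of the genes of the RNA exosome and of the enzymes that trim the precursor, 6 of 16 were higher, 10 lower and 5 above the median of all genes. Their median was -0.017, and -0.084 with the median of all genes subtracted. Of the lower genes, Mtrex (-0.0030), Exosc6 (-0.015), Exosc7 (-0.020) and Exosc2 (-0.075) had intervals that held 0. Of the higher genes, Exosc1 (0.28), Exosc3 (0.15) and Xrn2 (0.088) had intervals above 0. In all, the 138 genes of these lists and of the other RNA polymerase I and snoRNP genes had a median of 0.091, with 96 higher, 42 lower and 75 above the median of all genes. This median was 0.025 with the median of all genes subtracted.

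**Figure D4:**
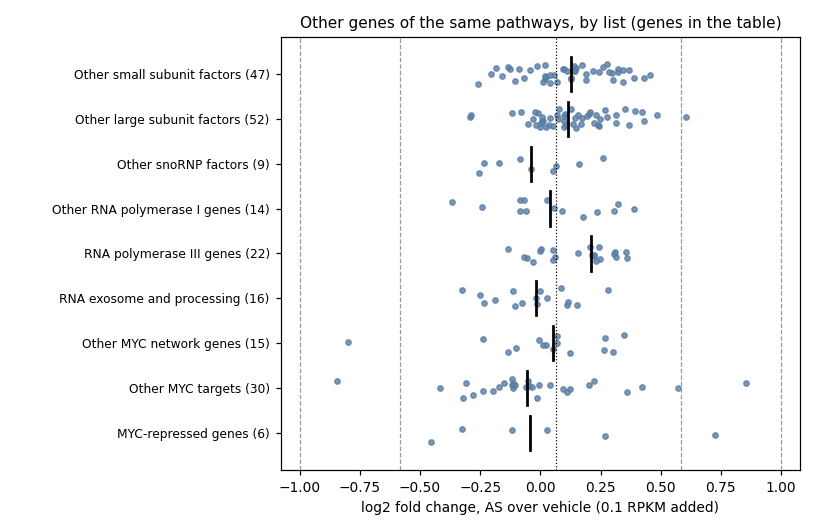
Log2 fold change of AS over vehicle for the other genes of the same pathways, 1 point per gene, with the number of genes in the table beside each list and the median as a black bar. Dashed lines mark 1.5-fold and 2-fold in both directions and the dotted line is the median of all genes; the points outside the inner dashed lines are Nol8, Mxd3, Shmt2, Ldha and Gadd45a.

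Targets of MYC outside the ribosome were not higher with AS. Of 30 such genes measured, 10 were higher and 20 were lower, and 9 were above the all-gene median, with a median of -0.056, which lay between -0.13 and -0.039 in the alternatives. The 2 genes past 1.5-fold had opposite signs. Shmt2, the mitochondrial serine hydroxymethyltransferase, which is also a target of ATF4, had 77.6 RPKM (AS) and 42.9 RPKM (vehicle) and a log2 fold change of 0.85 with an interval from 0.81 to 0.90. Ldha, the lactate dehydrogenase of glycolysis, which is also a target of HIF-1, had 92.6 RPKM (AS) and 166 RPKM (vehicle) and a log2 fold change of -0.84 with an interval from -0.87 to -0.82. Chosen after its value was seen, Odc1, the ornithine decarboxylase of polyamine synthesis and a classical MYC target, had 96.05 RPKM (AS) and 88.9 RPKM (vehicle), a log2 fold change of 0.11. Odc1 is 1 of the 10 higher genes. Among the 20 lower ones were Nme1 (-0.42), Cad (-0.15) and Cdk4 (-0.12), also chosen in this way. Of 7 genes that MYC is known to repress, 6 were in the table, with 3 higher and 3 lower, 2 above the median of all genes, and a median of -0.045, which was 0.15 without genes under 5 RPKM. Gadd45a, a growth arrest gene that also responds to stress, was the 1 of them past 1.5-fold, with 73.2 RPKM (AS) and 44.3 RPKM (vehicle) and a log2 fold change of 0.72.

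The libraries were checked against markers of the cell line. All 8 epithelial markers were in the table, with summed levels of 1841 RPKM with AS and 2344 RPKM with the vehicle. Of these 8 genes 2 were higher with AS, Cldn4 (0.42) and Cdh1 (0.17), and 6 were lower, from Krt19 (-0.73) to Cldn3 (-0.012). Krt19, a keratin gene and the 1 marker past 1.5-fold, had 136 RPKM (AS) and 226 RPKM (vehicle), and the keratin genes Krt8 (-0.54), Krt7 (-0.52) and Krt18 (-0.35) followed. These keratin differences were larger than those of most of the 53 genes. Of the markers of other cells, 4 were in the table with summed levels of 226 and 275 RPKM, while Adgre1, Cd3e, Pecam1, Cdh5 and Alb were not. Most of this sum was Tnnt2, a cardiac troponin gene, at 199.5 RPKM (AS) and 245 RPKM (vehicle). Of the myeloid genes Cd68 had 23.97 RPKM (AS) and 28.1 RPKM (vehicle) and Lyz2 2.47 RPKM (AS) and 1.85 RPKM (vehicle), and the pan-leukocyte gene Ptprc stood at 0.116 RPKM (AS) and 0.114 RPKM (vehicle). The part of these differences in the values above was not tested.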

How the data were processed

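RNA was measured in 1 library of 4T1 cells with 20 μM AS and 1 with the vehicle, from a stranded mRNA kit. The authors deposited 1 table with the RPKM of each library. The submitters' processing notes name fastp 0.23.4, STAR 2.5.3a, featureCounts and GRCh38, a human build, while the table lists mouse symbols. The unit was found from the values. Times the GENCODE M21 (GRCm38) joined exon length, the deposited RPKM were whole multiples of 1 constant per library (tolerance 0.01 reads) for 12715 of 13502 genes with a single entry, 94.2%, which gave the library sizes and the reads. The filter that left 14197 genes is not stated. Their 3 columns of fold changes, p-values and FDR and a mean log2 CPM were not used.

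Fold changes, counts past 2-fold and 1.5-fold, and medians were computed in Python 3.11, with intervals from scipy 1.17.1. With 1 library per condition no test was made. Scripts were tested on simulated data. The members and lists were chosen with earlier results of these data known. Named were all members, list genes past 1.5-fold, cell markers, list genes pointed out for what they encode, and others said to be chosen later. Alternatives were 0 or 1 RPKM added, subtraction of the median or of a trimmed mean (30% of ratios and 5% of levels), genes of at least 5 RPKM, removal of the expression trend in 20 bins, and recovered reads with 0.5 added. Genes without shared exons and the coding transcript length were added after the data were seen.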

Additional observations from a re-analysis of the deposited data

How the results depend on the processing

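With the median of all genes subtracted, with a trimmed mean subtracted and with the expression trend removed, 1 of the 53 genes, Nop10, was lower by more than 1.5-fold (values of -0.60, -0.61 and -0.63) in place of 0. No gene was beyond 2-fold, and none was higher by more than 1.5-fold, in any alternative. The trimmed mean moved the log2 fold change of Myc from 0.36 to 0.29 and the median of the other MYC targets from -0.056 to -0.13, which was -0.12 with the median of all genes subtracted and -0.083 without genes under 5 RPKM; the other alternatives moved Myc between 0.30 and 0.36. Both subtractions turned 7 of the 53 genes (Ncl, Nop16, Nolc1, Dkc1, Noc4l, Polr1c and Ddx10) from above to below 0, which left 32 above it in place of 39, and removal of the expression trend changed the sign of 6. The median of the 53 genes was 0.046 and 0.042 after the subtractions, 0.096 with the trend removed and between 0.099 and 0.12 otherwise. The median of the small subunit factors was between 0.18 and 0.26 and that of the MYC and MAX network between 0.23 and 0.33 in all of these except the overlap filter, which was applied to the 53 genes as 1 list. The median of the other MYC network genes turned to -0.012, -0.017 and -0.027 with the 2 subtractions and the trend removed. That of the MYC-repressed genes turned to 0.15 without genes under 5 RPKM. The causes were not tested. No replicate could be left out, and no paired analysis was possible because each condition has 1 library.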

Other observations

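The fold change of all genes was related to their level. Over 10 equal groups of genes by mean RPKM, the median log2 fold change was 0.099 in the lowest and -0.048 in the highest, and the share of genes past 1.5-fold in either direction was 12.7% in the lowest, 2.82% in the sixth and 5.07% in the highest. Of the 53 genes 0 were in the lowest 2 groups, 14 were in the ninth and 15 in the highest. Among genes with a mean of at least 5 RPKM, 135 of 7053 were higher and 108 lower by more than 1.5-fold, and 46 of the 53 genes passed this level.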
